A study of Mus musculus with 12 samples.

Results

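Heme breakdown, iron handling and the Nrf2 antioxidant response were followed through 10 genes in neutrophils sorted from mammary tumors and bone marrow. The members were chosen by name, with earlier results of these data known, and are 10 of the 55335 genes counted in each library. They are Hmox1, Fth1, Tfrc and Slc40a1 for heme and iron, Nfe2l2 for Nrf2 itself, and Nqo1, Gclm, Slc7a11, Txnrd1 and Srxn1 for its targets. RNA-seq had been carried out on neutrophils of 3 groups of 4 mice, 1 library per mouse. Tumor-associated neutrophils (TANs) came from mammary tumors of PyMT mice, which carry the polyoma middle T oncogene, and of PyMT-Cxcr2-/- mice, which carry the same oncogene and in addition lack the chemokine receptor Cxcr2 in every cell. The third group was bone marrow (BM) neutrophils of WT mice without the oncogene, also named marrow here. All mice were of the FVB background, 10 weeks old and kept in a SOPF facility, and the cells had been enriched for CD11b and then sorted as CD45+ CD11b+ Ly6G+ F4/80-. Tumors had been minced and digested with a dissociation kit, while marrow cells had been spun out of the bones. The comparison of TANs with WT BM neutrophils therefore joins differences of tissue, of cell isolation and of oncogene. For PyMT-Cxcr2-/- TANs it also joins a difference of Cxcr2 genotype, and these cannot be told apart. In bulk samples, fewer cells of a type and less RNA per cell cannot be told apart either.

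Heme oxygenase opens heme and frees its iron, which the cell stores in ferritin or exports. When iron is scarce, iron regulatory proteins bind hairpins called iron responsive elements (IREs) in ferritin, ferroportin and transferrin receptor mRNAs, which lowers ferritin translation and protects the transferrin receptor mRNA. Nrf2 is held low by Keap1 and, once released, pairs with small Maf proteins at antioxidant response elements of genes for glutathione, thioredoxin and NADPH production, while Bach1 represses Hmox1 until heme removes it. Neutrophils make reactive oxygen species as a weapon and also have to live with them.

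The iron genes of the group carry their control element in the transcript, and its letters show what the members share beyond their names. The loop CAGTGN, with N as A, C or T and a bulged C before 5 paired bases, was searched in UTRs. These were of the mm10 build with the GENCODE M21 annotation, and the rule was chosen after seeing the data. It was found in 3 of the 10 members and in 123 of 21141 protein-coding genes with a UTR (0.582%). A match of letters is a description, not proof of a working element. The sequences are those of the reference genome, not of the FVB strain, and the 6 loop bases are in capitals.
Fth1, 5′ UTR, chr19:9982732-9982760, + strand: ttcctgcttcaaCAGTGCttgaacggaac
Slc40a1, 5′ UTR, chr1:45925465-45925493, - strand: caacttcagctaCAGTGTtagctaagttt
Tfrc element 1, 3′ UTR, chr16:32631219-32631247, + strand: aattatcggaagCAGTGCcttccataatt
Tfrc element 2, 3′ UTR, chr16:32631598-32631626, + strand: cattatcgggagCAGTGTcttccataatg
Tfrc element 3, 3′ UTR, chr16:32631663-32631691, + strand: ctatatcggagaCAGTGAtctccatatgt
Tfrc element 4, 3′ UTR, chr16:32631710-32631738, + strand: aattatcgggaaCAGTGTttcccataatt
By this rule Fth1 and Slc40a1 had a single match at the start of the message, where the ribosome loads, and Tfrc had 4 near its end. Member matches whose stretch crossed an exon junction or the end of the transcript were left out, so these need not be all elements. The 123 genes were counted without this exclusion. No match that passed it was found in the other 7 members.

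For the Nrf2 side, the antioxidant response element core TGACNNNGC was searched on both strands of RefSeq promoter windows of 300 bases (GRCm38.p6). These windows were at hand for 8 of the 10 members, all except Hmox1 and Slc40a1. The core was in a window of Gclm, Nfe2l2, Srxn1 and Txnrd1, and in 12.4% of all 32851 windows. In Srxn1 it began 28 bases after the transcription start. The AP-1 core TGANTCA, which can overlap it in part, was in 7.81% of all windows and, among the members, in Srxn1 alone, at 102 and 45 bases before the start. The motif is in capitals in the stretches shown, which are read on the strand of the gene.
Nfe2l2, chr2:75704875-75704913, - strand: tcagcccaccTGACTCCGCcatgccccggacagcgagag
Gclm, chr3:122245403-122245451, + strand: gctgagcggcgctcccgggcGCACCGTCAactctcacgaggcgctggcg
Txnrd1, chr10:82859094-82859142, + strand: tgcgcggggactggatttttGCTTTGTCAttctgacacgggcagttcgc
Srxn1, distal, chr2:152105402-152105448, + strand: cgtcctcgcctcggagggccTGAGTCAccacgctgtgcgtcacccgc
Srxn1, proximal, chr2:152105459-152105505, + strand: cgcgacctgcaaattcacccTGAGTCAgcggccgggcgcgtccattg
Gclm and Txnrd1 hold the core on the opposite strand, so it reads in reverse complement here. The RefSeq start of Txnrd1 lies inside the longer GENCODE gene. The windows of Fth1, Tfrc, Nqo1 and Slc7a11 held neither set of letters, which says nothing of Nrf2 at these genes outside the windows.

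The genotype labels were checked first on the deleted gene. Cxcr2 was at 1186 ± 237 CPM (reads of a gene relative to all reads on genes, with TMM scaling, SD, n = 4) in the PyMT TANs, 9.48 ± 0.532 in the PyMT-Cxcr2-/- TANs and 2035 ± 199.6 in marrow. The counts on genes were between 25032704 and 51351569 per library, so that 3 counts, taken as the floor, were at most 0.120 CPM. The members lay far above it, the lowest single value being 55 reads of Nqo1 in a PyMT TAN library. Markers of other cells differed between tumor and marrow. The 14 macrophage and monocyte markers, led by Apoe and Csf1r, summed to between 2204 and 5235 CPM in PyMT TANs, 2414 and 4981 in PyMT-Cxcr2-/- TANs and 265 and 367 in marrow, and none of them was at 0 in every library of a group. Adgre1, which encodes the F4/80 antigen used to exclude macrophages from the sort and was singled out for that reason, was at 136 ± 49.4, 111 ± 28.1 and 10.3 ± 1.40 CPM. The 12 mammary epithelial markers, led by Csn3 and Krt8, summed to between 53.5 and 502, between 94.3 and 372, and between 0.120 and 0.514, with 7 of them at 0 in every marrow library. The 12 neutrophil markers, led by S100a9 and S100a8, summed to between 11031 and 17711, between 21241 and 37265, and between 107472 and 152019, so the 3 groups did not overlap. The 8 fibroblast and endothelial markers, led by Pecam1 and Col1a1, summed to between 18.7 and 42.8, between 24.3 and 53.8, and between 11.8 and 14.9, so that every TAN library was above every marrow library. The 11 erythroid markers matched, led by Hbb-bs and Hba-a1, summed to 132 CPM in replicate 3 of the PyMT TANs and to at most 22.6 in any other library.

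Of the 10 genes, 7 were higher in PyMT TANs than in WT BM neutrophils, 1 was lower and 2 were not past the thresholds. A gene was past them with a Benjamini-Hochberg adjusted p under 0.05 in edgeR's quasi-likelihood test and a change of at least 1.5-fold. Among all 17153 genes tested, 30.1% were higher and 23.2% lower by this rule. In PyMT-Cxcr2-/- TANs against the same marrow libraries, 7 of the 10 were again higher and 1 lower, beside 34.4% higher and 25.1% lower of 17732 genes. The median log2 fold change of the 10 was 0.997 and 1.02 in these comparisons, and that of all genes 0.09 in each. Earlier results of these data were known when the members were chosen, so the excess over all genes is no independent result. The highest rises were those of Srxn1 and Txnrd1, the enzymes that keep peroxiredoxins and thioredoxin working. Between the TANs, Tfrc was the only member past the thresholds, and it was lower in PyMT-Cxcr2-/- TANs.

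**Figure D1:**
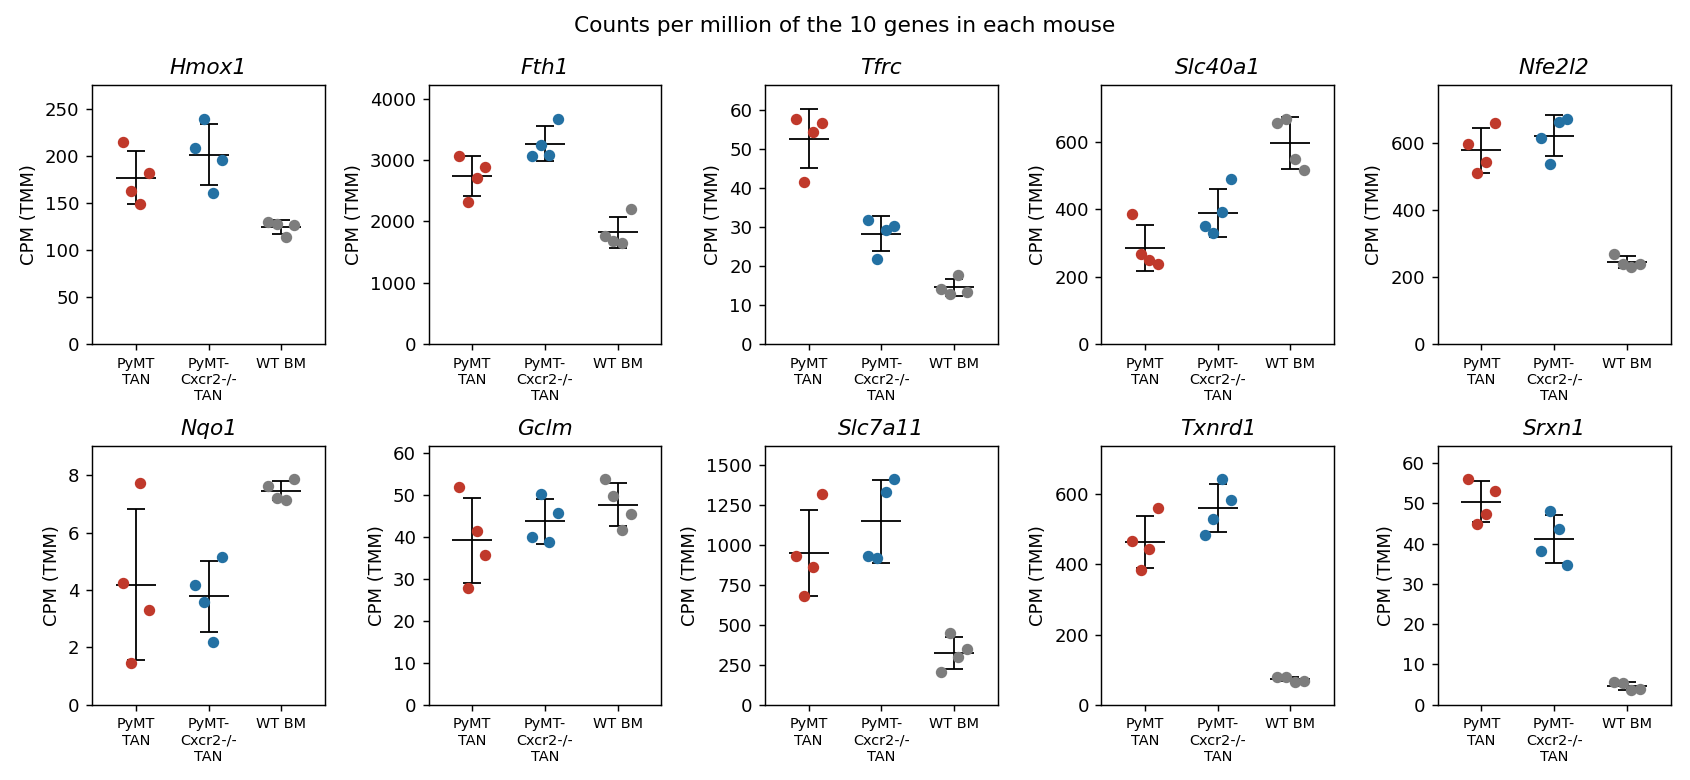
CPM with TMM scaling of each gene (vertical axis, from 0) in each mouse (points) of the 3 groups, with the mean and SD (bars, n = 4). Srxn1 and Txnrd1 of every TAN mouse lie far above the marrow mice, Slc40a1 lies below them, and Tfrc forms 3 separate levels from 41.5 to 57.8, from 21.7 to 31.8 and from 12.9 to 17.7 CPM.

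Hmox1, the inducible heme oxygenase (chr8:75093621-75100589), was at 215, 163, 149 and 183 CPM in the 4 PyMT TAN libraries, at 209, 240.2, 161 and 196 in the PyMT-Cxcr2-/- TAN libraries, and at 129.7, 128, 114 and 127 in the WT BM libraries. Every TAN library was above every marrow library, and the TANs overlapped one another. The rise was 1.502-fold in PyMT TANs (log2 0.59 ± 0.12 SE, adjusted p = 0.00167), which is at the limit of 1.5-fold itself, and 1.76-fold in PyMT-Cxcr2-/- TANs (log2 0.82 ± 0.12, adjusted p = 4.51e-05). The call in PyMT TANs was lost in 6 of the 8 fits without 1 mouse, namely without PyMT TAN replicate 1 or 4 or any 1 WT BM replicate, since the log2 fold change then lay between 0.49 and 0.56, while the adjusted p over the 8 fits was at most 0.0162. Within the PyMT TANs, Hmox1 was highest in the library with the lowest macrophage marker sum (2204 CPM) and lowest in the one with the highest sum (5235). Within the PyMT-Cxcr2-/- TANs, it was highest in the library with the highest sum (4981). The part of these cells in the Hmox1 level was not tested.

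Fth1, the ferritin heavy chain that oxidizes and stores iron (chr19:9980598-9985098), was at 3058, 2307, 2713 and 2892 CPM in the PyMT TANs, at 3063, 3250.0, 3088 and 3673 in the PyMT-Cxcr2-/- TANs and at 1764, 1676, 1652 and 2198 in WT marrow. The lowest PyMT TAN library was just above the highest marrow library, and the TANs were separated by 3058 against 3063. Fth1 rose 1.59-fold in PyMT TANs (log2 0.67 ± 0.14, adjusted p = 0.00176) and 1.95-fold in PyMT-Cxcr2-/- TANs (log2 0.96 ± 0.13, adjusted p = 2.55e-05). Without WT BM replicate 2 or 3 the log2 fold change in PyMT TANs was 0.58, under the 1.5-fold limit. Reads of Fth1 can be shared with its processed copies, of which the largest, Fth-ps2, had 14104 counts over the 12 libraries beside 1313772 of Fth1.

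Tfrc, the transferrin receptor that takes up iron (chr16:32608920-32632794), was at 57.8, 41.5, 54.5 and 56.8 CPM in the PyMT TANs, at 31.8, 21.7, 29.1 and 30.3 in the PyMT-Cxcr2-/- TANs and at 14.02, 12.9, 17.7 and 13.4 in WT marrow. The 3 groups did not overlap. The rise over marrow was 3.84-fold in PyMT TANs (log2 1.94 ± 0.16, adjusted p = 2.32e-06) and 2.11-fold in PyMT-Cxcr2-/- TANs (log2 1.08 ± 0.15, adjusted p = 2.17e-05). Tfrc and Fth1, which are controlled in opposite ways by cellular iron, were thus each higher in TANs of either genotype at the RNA level.

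Directly compared, Tfrc was 1.91-fold lower in PyMT-Cxcr2-/- TANs than in PyMT TANs (log2 -0.93 ± 0.17, adjusted p = 0.0190). Of the 10 members, 0 were higher and 1 lower by edgeR, and likewise by DESeq2, and of all 18463 genes 1.38% were higher and 0.596% lower. The share of all genes with an unadjusted p under 0.05 was not counted. By that p alone, 1 member was higher, Slc40a1, and 2 were lower, Tfrc and Srxn1. The call was lost without PyMT TAN replicate 2 (adjusted p = 0.0502) or PyMT-Cxcr2-/- TAN replicate 3 (adjusted p = 0.0766) or 4 (adjusted p = 0.0663), with a log2 fold change that stayed between -1.02 and -0.82 in the 8 fits without 1 mouse. Without PyMT TAN replicate 3, the library with erythroid transcripts, it was -0.90 (adjusted p = 0.0422). Cycling cells take up much iron, and 1 of the 10 cycling-cell markers differed between the TANs. This was Pcna, at 77.4 ± 4.98 CPM in PyMT TANs and 47.9 ± 4.21 in PyMT-Cxcr2-/- TANs (log2 -0.73 ± 0.13, adjusted p = 0.0190). The sums of the 10 markers, led by Mki67 and Pcna, overlapped (175 to 275 and 183 to 236 CPM) and were higher in marrow (306 to 399), where Tfrc was lowest. The neutrophil marker sums did not overlap between the TANs, being higher in PyMT-Cxcr2-/- TANs. The part of these differences in the Tfrc level was not tested.

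**Figure D2:**
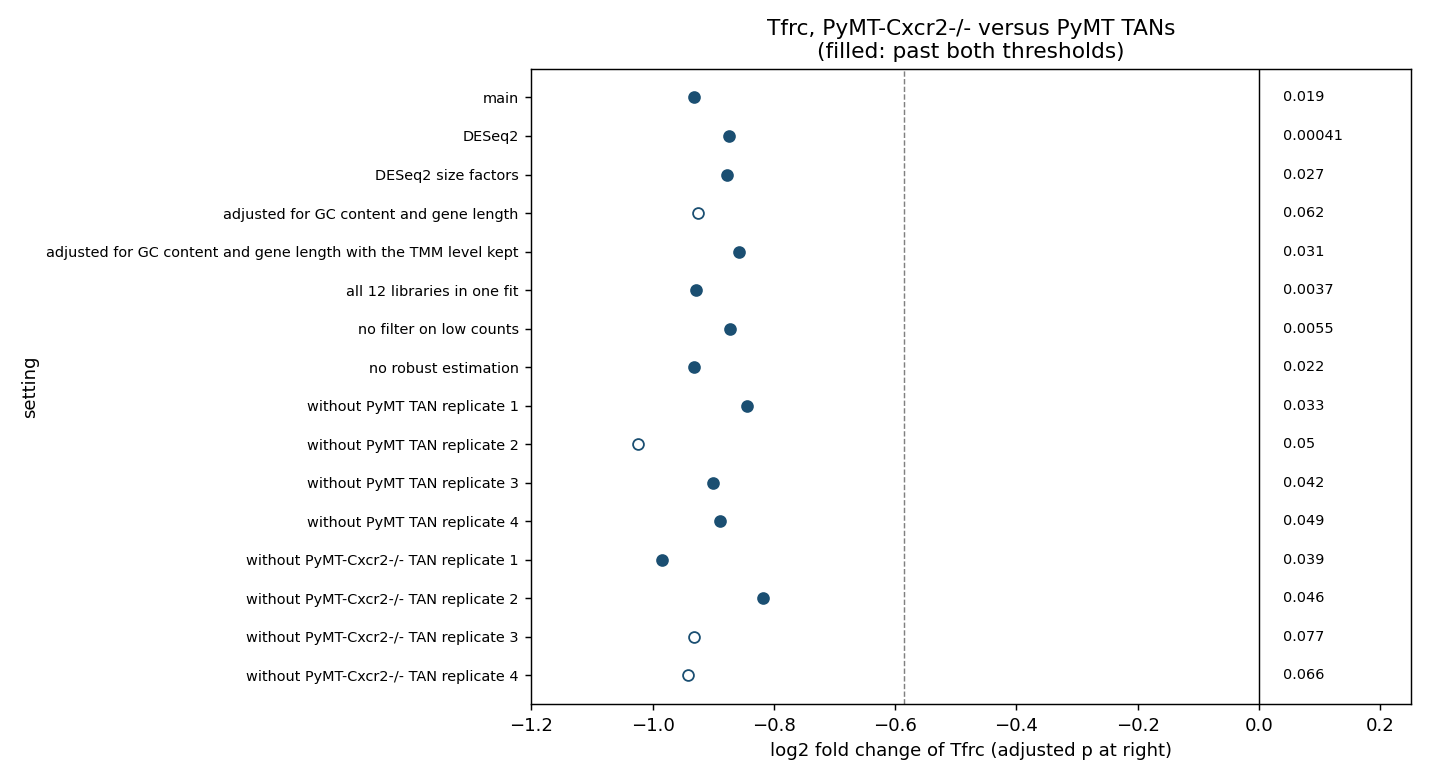
Log2 fold change of Tfrc in PyMT-Cxcr2-/- TANs against PyMT TANs (horizontal axis, points without error bars) in the fit used throughout (main) and in alternative fits (vertical axis), with the adjusted p beside each point and the 1.5-fold limit as a broken line. All points lie between -1.02 and -0.82, left of the limit, and the open points have an adjusted p of 0.05 or more. The replicate block, at -0.94 with an adjusted p of 0.104, is not drawn, nor is the main fit with no fold limit.

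Slc40a1, which encodes ferroportin, the iron exporter (chr1:45908068-45926523), was the iron gene that fell. It was at 386, 268, 248 and 238 CPM in the PyMT TANs, at 349, 328, 391 and 489 in the PyMT-Cxcr2-/- TANs and at 655, 668, 547 and 516 in WT marrow. All TAN libraries were below all marrow libraries, and the highest PyMT TAN library lay among the PyMT-Cxcr2-/- TANs. The fall was 1.99-fold in PyMT TANs (log2 -0.99 ± 0.16, adjusted p = 2.96e-04). In PyMT-Cxcr2-/- TANs the log2 difference from marrow was -0.50 ± 0.14 (adjusted p = 0.00515), which is 1.41-fold and under the fold limit. Without PyMT-Cxcr2-/- TAN replicate 4, which had the highest level of that group, it was -0.62 and past the limit. The direct difference between the TANs was 0.42 ± 0.18 (adjusted p = 0.299), so a difference of the TANs in Slc40a1 was not shown. Slc40a1 was highest in the marrow libraries, where the macrophage marker sums were lowest, and within each TAN group in the library with the lowest sum (2204 and 2414 CPM). The part of macrophages in the Slc40a1 level was not tested.

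Nfe2l2, which encodes Nrf2 (chr2:75675513-75704641), was at 597, 508, 542 and 659 CPM in the PyMT TANs, at 613, 537, 660.5 and 671 in the PyMT-Cxcr2-/- TANs and at 269, 239.5, 228 and 239 in WT marrow. Every TAN library was well above the marrow libraries. The rise was 2.50-fold (log2 1.32 ± 0.12, adjusted p = 4.79e-06) and 2.76-fold (log2 1.47 ± 0.11, adjusted p = 8.56e-08). Nrf2 is set mostly through the stability of its protein, which was not measured.

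Srxn1, sulfiredoxin, which repairs overoxidized peroxiredoxins (chr2:152105516-152111376), had the highest fold change of the members. It was at 55.9, 44.9, 47.4 and 53.2 CPM in the PyMT TANs, at 38.1, 48.1, 43.5 and 34.7 in the PyMT-Cxcr2-/- TANs and at 5.72, 5.45, 3.60 and 3.86 in WT marrow. The lowest TAN library was thus far above the highest marrow library. Srxn1 rose 11.4-fold (log2 3.52 ± 0.19, adjusted p = 1.29e-07) and 9.62-fold (log2 3.27 ± 0.18, adjusted p = 7.67e-09). Srxn1 is also the member with the AP-1 letters shown above, and its window holds the antioxidant response element core as well. The part of either in the Srxn1 level was not tested.

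Txnrd1, thioredoxin reductase of the cytosol (chr10:82833951-82897712), was at 467, 385, 443 and 560.2 CPM in the PyMT TANs, at 485, 531, 642 and 585 in the PyMT-Cxcr2-/- TANs and at 80.3, 77.7, 66.0 and 68.9 in WT marrow. No TAN library came near the marrow range. The rise was 6.71-fold (log2 2.75 ± 0.15, adjusted p = 1.11e-07) and 8.32-fold (log2 3.06 ± 0.12, adjusted p = 5.89e-10).

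Slc7a11, the cystine importer that feeds glutathione synthesis (chr3:49892526-50443614), was at 926, 678, 861 and 1317 CPM in the PyMT TANs, at 926, 917, 1331 and 1407 in the PyMT-Cxcr2-/- TANs and at 205, 445, 298 and 349 in WT marrow. It varied more between mice than most members, with a coefficient of variation of 28.4%, 22.7% and 30.8%, but TANs and marrow did not overlap. The rise was 3.09-fold (log2 1.63 ± 0.25, adjusted p = 2.07e-04) and 3.83-fold (log2 1.94 ± 0.22, adjusted p = 5.17e-06).

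Gclm and Nqo1, which are often used as Nrf2 target genes, did not join this rise. Gclm, the modifier subunit of the enzyme that starts glutathione synthesis (chr3:122245557-122270732), was at 51.8, 27.8, 41.3 and 35.7 CPM in the PyMT TANs, at 40.0, 50.1, 38.8 and 45.6 in the PyMT-Cxcr2-/- TANs and at 53.6, 49.7, 41.7 and 45.5 in WT marrow. The 3 groups overlapped. The log2 differences from marrow were -0.20 ± 0.18 (adjusted p = 0.350) and -0.01 ± 0.12 (adjusted p = 0.966). Gclc, the catalytic subunit of the same enzyme, is in the list of further Nrf2 target genes below and was singled out after its values were seen. It was higher than in marrow by log2 2.78 ± 0.17 (adjusted p = 2.37e-07) and 2.31 ± 0.16 (adjusted p = 5.17e-08). Of that list, 7 genes were higher and 8 lower in either genotype. Exons of Gclm overlap those of a pseudogene on the same strand, Gm6061, and of Gm17494 on the opposite strand, and the strand setting of the counting is not given in the sources used here, so its counts are uncertain to that extent.

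Nqo1, a quinone reductase (chr8:107388225-107403206), was at 4.25, 1.45, 7.75 and 3.31 CPM in the PyMT TANs, at 4.18, 3.59, 2.20 and 5.17 in the PyMT-Cxcr2-/- TANs and at 7.61, 7.22, 7.14 and 7.85 in WT marrow. PyMT TAN replicate 3, with its erythroid transcripts, was alone among the TANs in reaching the marrow range. Nqo1 fell 1.82-fold in PyMT-Cxcr2-/- TANs (log2 -0.86 ± 0.23, adjusted p = 0.00469). In PyMT TANs the log2 difference was -0.75 ± 0.41 (adjusted p = 0.146), and without replicate 3 it was -1.25 (adjusted p = 0.00742). The mammary epithelial marker sum in replicate 3 was 365 CPM, beside 502 in replicate 4, where Nqo1 was at 3.31. Their part in the level of Nqo1 was not tested.

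**Figure D3:**
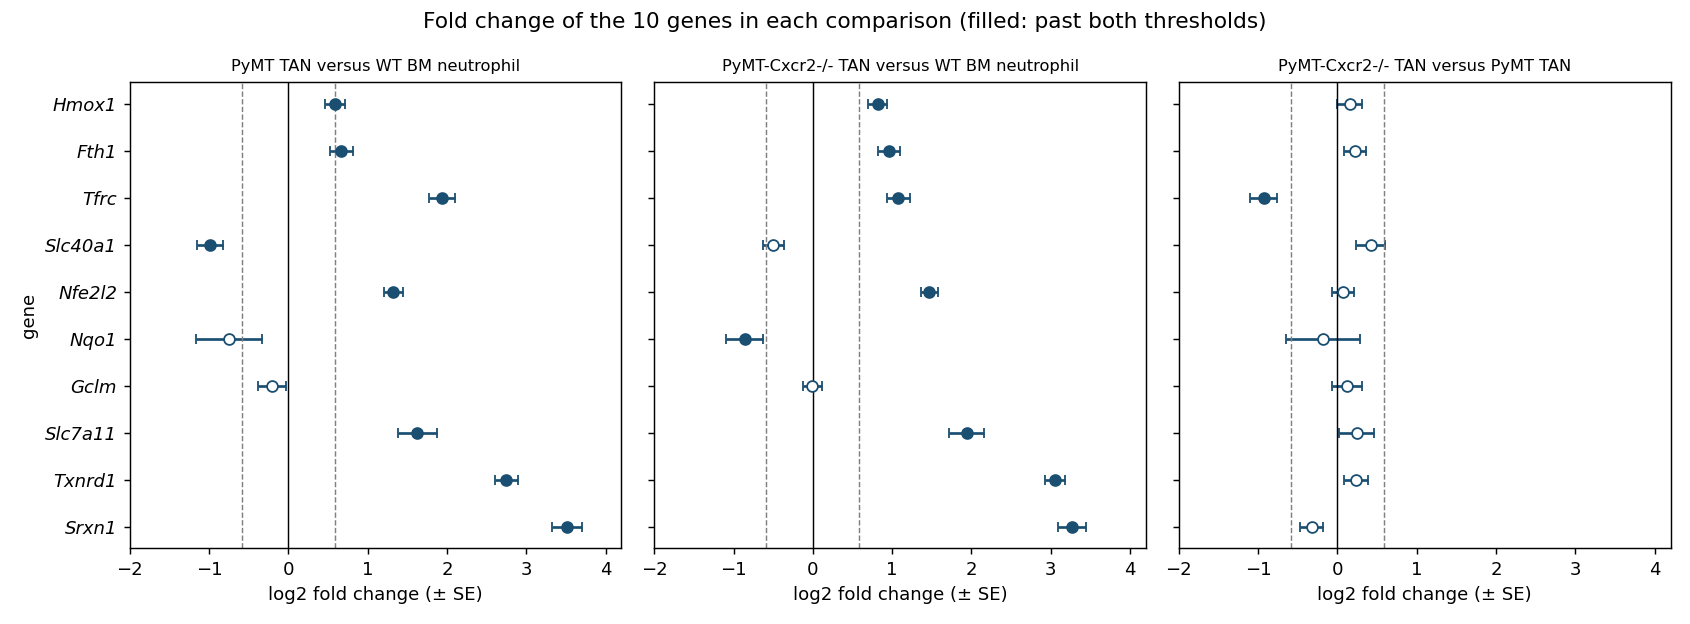
Log2 fold change (horizontal axis, points) with its SE (bars) of the 10 genes (vertical axis) in the 3 comparisons, filled where past both thresholds, with the 1.5-fold limits as broken lines. Left and middle panels share the marrow libraries and show the same 7 genes to the right of the upper limit, from Hmox1 at 0.59 and 0.82 to Srxn1 at 3.52 and 3.27, while in the right panel Tfrc at -0.93 is the only filled point.

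Between the TANs, the other 9 members were not past the thresholds. Their log2 differences were 0.15 ± 0.16 for Hmox1, 0.22 ± 0.14 for Fth1, 0.07 ± 0.14 for Nfe2l2 and 0.12 ± 0.19 for Gclm, and 0.24 ± 0.22 for Slc7a11 and 0.24 ± 0.15 for Txnrd1. Srxn1 was at -0.32 ± 0.15 (adjusted p = 0.324) and Nqo1, the least precise, at -0.18 ± 0.47. Missing the threshold does not show that the TANs were alike in these genes.

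Levels of different genes were set beside each other as CPM per kb of exon. The length counted every annotated exon of a gene over all its transcripts, 3469 bases for Fth1 and 13922 for Slc7a11. The order of the genes therefore depends in part on the annotation. On this scale, Fth1 led in every group, at 791 ± 93.0 in the PyMT TANs, 942 ± 81.3 in the PyMT-Cxcr2-/- TANs and 525 ± 73.4 in marrow. In TANs of either genotype it was followed by Nfe2l2, Hmox1, Slc7a11, Txnrd1, Slc40a1 and Srxn1 in this order. Nfe2l2 stood at 152 ± 17.4 CPM per kb in PyMT TANs, above Hmox1 at 101 ± 16.3 with no overlap of the mice. Slc7a11 (67.9 ± 19.3) overlapped with Hmox1 above it and with Txnrd1 (65.5 ± 10.3) below it. Txnrd1 did not overlap with Slc40a1, the next gene. At the low end, Gclm was above Tfrc in PyMT-Cxcr2-/- TANs and overlapped with it in PyMT TANs. In marrow the order was Fth1, then Hmox1 (71.2 ± 4.002), Slc40a1 (66.3 ± 8.46) and Nfe2l2 (64.2 ± 4.57), which did not differ beyond their ranges, then Slc7a11, Txnrd1, Gclm, Nqo1, Tfrc and, last, Srxn1 at 1.65 ± 0.384. Srxn1 thus stood last of the 10 in marrow and seventh in TANs.

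**Figure D4:**
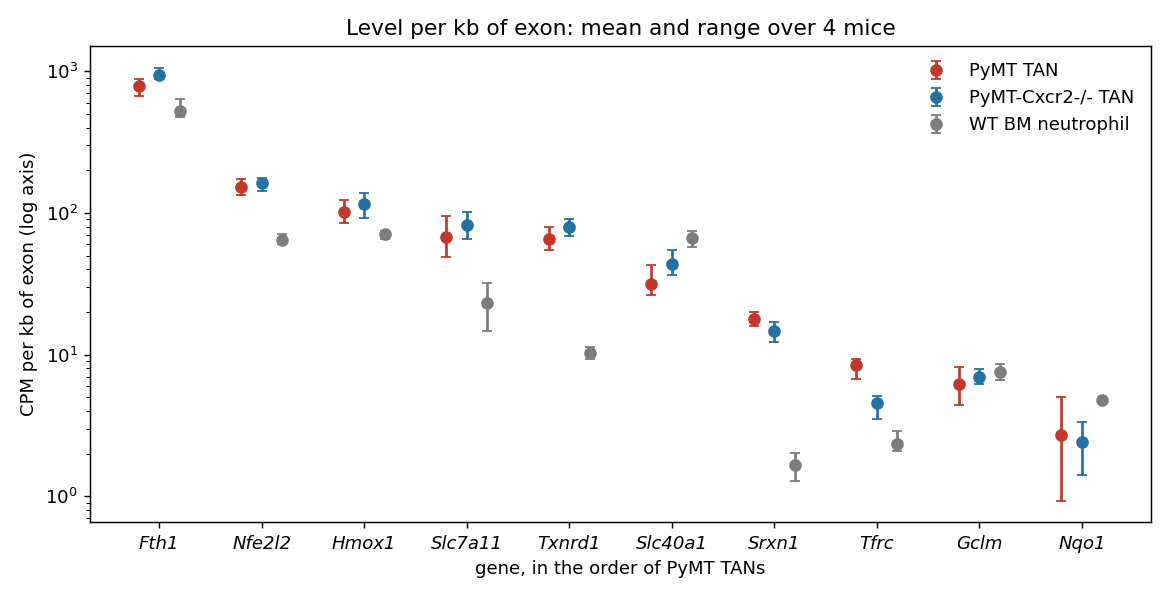
CPM per kb of exon on a log axis for the 10 genes, in the order of the PyMT TANs, with the mean (points) and the range over 4 mice (bars) of each group. Fth1 lies above the other genes in each group, from 525 to 942, and Srxn1 and Txnrd1 show the widest gap between the TAN points and the marrow point.

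Other genes of the same pathways did not move as 1 block. Against marrow, 30.1% of all genes tested were higher and 23.2% lower in PyMT TANs, and 34.4% and 25.1% in PyMT-Cxcr2-/- TANs. Of 20 further Nrf2 target genes, 18 were tested against marrow, and in either genotype 7 were higher, 8 lower and 3 not past the thresholds, with a median log2 fold change of 0.20 in PyMT TANs and -0.14 in PyMT-Cxcr2-/- TANs beside 0.09 for all genes in each. Those that rose most in PyMT TANs were Ephx1, an epoxide hydrolase (log2 4.30 ± 0.68), and Prdx1, a peroxiredoxin that Srxn1 repairs (3.62 ± 0.30). Ephx1 was near the floor in marrow, at 0.280 ± 0.144 CPM with 4 to 16 counts per library. In PyMT TANs it varied much between mice, at 5.22 ± 3.69 CPM. Prdx1 was at 93.7 ± 40.4, 90.3 ± 33.6 and 8.13 ± 1.04 CPM in PyMT TANs, PyMT-Cxcr2-/- TANs and marrow. Those that fell most were Tkt, transketolase (-3.17 ± 0.19), and Pgd, phosphogluconate dehydrogenase (-2.48 ± 0.18), of the pentose phosphate pathway, which supplies the NADPH that thioredoxin and glutathione reductases use. Exons of Ephx1 overlap Gm36961 and those of Tkt overlap Mir3076.

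Between the TANs, 3 of the 20 Nrf2 target genes were past the thresholds, all of the pentose phosphate pathway and higher in PyMT-Cxcr2-/- TANs. Of all 18463 genes tested between the TANs, 1.38% were higher and 0.596% lower. Tkt was at 133 ± 27.8 CPM in the PyMT TANs, 311 ± 86.8 in the PyMT-Cxcr2-/- TANs and 1265 ± 205 in marrow, with a log2 difference between the TANs of 1.19 ± 0.21 (adjusted p = 0.0190). G6pdx, glucose phosphate dehydrogenase, the entry enzyme of the pathway, was at 177 ± 39.8, 391 ± 120 and 824 ± 108 CPM (1.11 ± 0.22, adjusted p = 0.0289). Pgd was at 399.9 ± 86.3, 773 ± 192 and 2356 ± 339.8 CPM (0.92 ± 0.21, adjusted p = 0.0479). The 3 groups did not overlap in any of these genes. The calls were lost without PyMT TAN replicate 2 for each of the genes (adjusted p = 0.0846, 0.102 and 0.137) and likewise without PyMT-Cxcr2-/- TAN replicate 3 (adjusted p = 0.0605, 0.0803 and 0.150, in the order Tkt, G6pdx and Pgd). For G6pdx and Pgd they were also lost without PyMT TAN replicate 3 (0.0599 and 0.0704) or 4 (0.0618 and 0.0859) or PyMT-Cxcr2-/- TAN replicate 4 (0.0817 and 0.162), and for Pgd without PyMT-Cxcr2-/- TAN replicate 1 (0.0704). The neutrophil marker sums were higher in PyMT-Cxcr2-/- TANs than in PyMT TANs and highest in marrow, which is the order of these genes as well, and their part was not tested. Exons of G6pdx overlap those of Ikbkg on the opposite strand.

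Of the 12 regulators of Nrf2, 3 were higher, 3 lower and 6 not past the thresholds in either genotype against marrow. The shares over all genes were 30.1% higher and 23.2% lower in PyMT TANs, and 34.4% and 25.1% in PyMT-Cxcr2-/- TANs. Maff, a small Maf partner of Nrf2, was at 209 ± 28.4 CPM in the PyMT TANs, 173 ± 29.3 in the PyMT-Cxcr2-/- TANs and 9.86 ± 1.95 in marrow (log2 4.48 ± 0.18 and 4.25 ± 0.17), while Mafg, another one, fell (-2.29 ± 0.16 and -1.78 ± 0.12). Bach2, a repressor that competes for the same sites, rose (1.99 ± 0.42 and 2.32 ± 0.31), and Rbx1, a subunit of the ligase that marks Nrf2 for degradation, fell (-0.89 ± 0.19 and -0.84 ± 0.10). Keap1, which holds Nrf2 low and was singled out after its values were seen, fell as well. Its log2 differences were -0.83 ± 0.24 (adjusted p = 0.0118) and -1.04 ± 0.13 (adjusted p = 1.29e-05). Exons of Mafg overlap those of Sirt7, and those of Bach2 overlap Bach2os. Those of Keap1 overlap Gm16754 on the opposite strand. By edgeR 0 of the 12 were past the thresholds between the TANs, and 1 had an unadjusted p under 0.05. The share of all genes at that unadjusted p was not counted.

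Of 18 genes of heme synthesis, transport and breakdown, 17 were tested against marrow, and 5 were higher, 1 lower and 11 not past the thresholds in either genotype. The medians were 0.48 and 0.07, beside 0.09 for all genes in each. Of all genes tested, 30.1% were higher and 23.2% lower in PyMT TANs, and 34.4% and 25.1% in PyMT-Cxcr2-/- TANs. Alad and Cpox, enzymes of heme synthesis, rose (3.06 ± 0.53 and 2.73 ± 0.38 in PyMT TANs), from a low level of 0.553 ± 0.211 and 0.736 ± 0.150 CPM in marrow to 4.34 ± 2.46 and 4.62 ± 1.10. Ppox, a later enzyme of the same route, fell (-1.59 ± 0.19 in PyMT TANs and -0.90 ± 0.10 in PyMT-Cxcr2-/- TANs). Exons of Cpox and Ppox overlap genes on the opposite strand, Gpr15 and B4galt3. Alas2, the erythroid enzyme that starts heme synthesis, was singled out after its values were seen, since its log2 difference between the TANs was the farthest from 0 of all list genes (-2.80 ± 1.16, adjusted p = 0.282). It ranged from 0.510 to 18.6 CPM in PyMT TANs and from 0.307 to 1.34 in PyMT-Cxcr2-/- TANs, so the groups overlapped. The erythroid markers summed to 132 CPM in PyMT TAN replicate 3 and to at most 3.02 in any other PyMT TAN library. The part of erythroid cells in the Alas2 difference was not tested.

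Of the further genes of iron uptake, storage and control, 17 were tested, and 9 were higher, 4 lower and 4 not past the thresholds in either genotype, with medians of 0.95 and 1.12. The median of all genes was 0.09 in each. Among all genes, 30.1% were higher and 23.2% lower in PyMT TANs, and 34.4% and 25.1% in PyMT-Cxcr2-/- TANs. The lists were not tested against these shares. Slc39a14, which carries iron not bound to transferrin, was at 28.6 ± 10.9 CPM in the PyMT TANs, 27.1 ± 7.71 in the PyMT-Cxcr2-/- TANs and 0.616 ± 0.112 in marrow (log2 5.62 ± 0.34 and 5.57 ± 0.26). Steap3, which reduces iron taken up with transferrin, rose as well (5.35 ± 0.79 and 5.33 ± 0.44), from 0.290 ± 0.229 CPM. Ncoa4, which delivers ferritin to breakdown, was at 53.9 ± 1.85, 55.1 ± 3.40 and 220.2 ± 26.8 CPM and fell (-1.95 ± 0.12 and -1.88 ± 0.11). Slc25a37, a carrier of iron into mitochondria, also fell (-1.08 ± 0.16 and -0.63 ± 0.11), and its exons overlap Gm31748 and Gm27223 on the opposite strand. The call in PyMT-Cxcr2-/- TANs was lost without PyMT-Cxcr2-/- TAN replicate 1 or 2, at -0.55 each.

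Of 21 other glutathione, thioredoxin and peroxide enzymes, 19 were tested. In PyMT TANs 7 were higher and 5 lower, beside 30.1% and 23.2% of all genes. In PyMT-Cxcr2-/- TANs 9 were higher and 5 lower, beside 34.4% and 25.1% of all genes. The medians were 0.49 and 0.54, beside 0.09 for all genes in each. Prdx2, a peroxiredoxin, rose (3.49 ± 0.36 and 3.35 ± 0.24), as did Sod2, the superoxide dismutase of mitochondria, from 25.6 ± 2.63 CPM in marrow to 115 ± 29.04 and 113 ± 23.6. Prdx5 fell from 810.2 ± 129 CPM in marrow to 93.1 ± 27.1 and 177 ± 48.1, and Aifm2, which reduces coenzyme Q, fell by 1.79 and 0.72 on the log2 scale. Exons of Prdx2, Prdx5 and Aifm2 overlap genes on the opposite strand. Between the TANs, 0 genes of the heme, iron and antioxidant enzyme lists were past the thresholds by edgeR. In the order of these lists, 3, 2 and 5 genes had an unadjusted p under 0.05. The share of all genes at that unadjusted p was not counted.

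**Figure D5:**
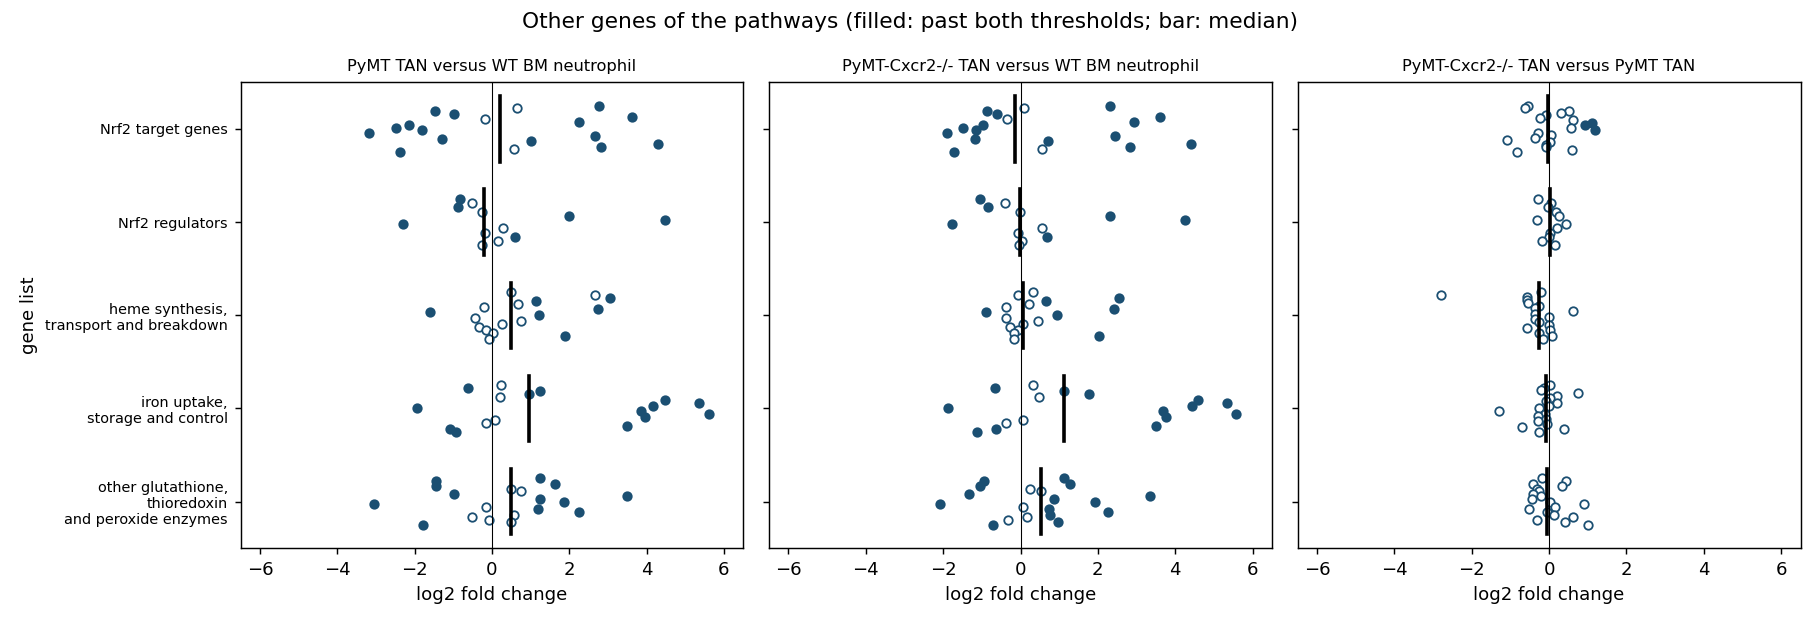
Log2 fold change (horizontal axis) of each further gene (points, filled where past both thresholds) of the 5 pathway lists (vertical axis) in the 3 comparisons, with the median of the list as a bar. The lists spread to both sides of 0 against marrow, from Tkt at -3.17 to Slc39a14 at 5.62 in PyMT TANs, while between the TANs the medians lie from -0.27 to 0.04, Tkt, Pgd and G6pdx are the filled points, and the open point farthest from 0 is Alas2 at -2.80.

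Markers of several cell types moved beside these differences from marrow. In all, 12 of 13 macrophage markers tested and 9 of 9 epithelial markers tested were higher in TANs of either genotype than in marrow, and 0 of either list were past the thresholds by edgeR between the TANs, or had an unadjusted p under 0.05. Of the fibroblast and endothelial markers, 4 of 5 tested were higher in PyMT TANs and 6 of 7 in PyMT-Cxcr2-/- TANs than in marrow. Of the 12 neutrophil markers, 11 were lower in TANs of either genotype than in marrow, and between the TANs 8 were higher in PyMT-Cxcr2-/- TANs and 1, Cxcr2, was lower. The part of these markers in the differences was not tested.

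The genes whose pattern over the 12 libraries was most like that of a member, by the root mean square difference of centred log2 CPM among 18940 genes, were as follows. For Txnrd1 they were Nup98 (0.147) and Smox (0.152), against a spread of Txnrd1 itself of 1.33. For Srxn1 they were Hook2 (0.183) and Slfn5 (0.196), for Nfe2l2 Nab1 (0.108) and March7 (0.130), and for Slc7a11 Tgoln1 (0.209) and Suco (0.216). Slc40a1 was closest to Tbc1d2b (0.0889) and Ppp1r15b (0.0906), Fth1 to Lamp2 (0.127) and Hspa4 (0.130), and Hmox1 to Ufsp2 (0.150) and Golgb1 (0.158). Tfrc was closest to Mtfr2 (0.213) and Nsf (0.216), Gclm to Wbp11 (0.133) and Smad4 (0.150), and Nqo1 to 2610005L07Rik (0.289) and Gm48226 (0.297). None of these is another of the 10 members, so no member was among the 2 nearest genes of another.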

How the data were processed

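The deposited files hold raw counts per gene for each of the 12 libraries. After depletion of ribosomal RNA and a directional library kit, the authors trimmed reads of low quality, aligned the rest to mm10 with STAR and obtained the counts with HTSeq. The annotation release and the strand setting are not given in the sources used here. Of the 55335 genes, 55154 were matched by identifier to GENCODE M21. Counts in no gene were left out of library sizes and were 32.0% to 52.5% of each total. Each pair of groups was fitted alone with edgeR 4.0.16 (R 4.3.3), TMM factors, filterByExpr, robust glmQLFit and glmQLFTest, and p-values were adjusted by Benjamini-Hochberg over all genes tested. Alternatives were DESeq2 1.42.0 or its size factors, no filter, no robust estimation, all 12 libraries in one fit, a replicate block, a correction for GC content and gene length, no fold limit, and each mouse left out. SE is the log2 fold change over the square root of F. CPM use TMM factors of all 12 libraries (log2 CPM with a prior count of 2), and list medians use the genes tested.

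The members and lists were chosen with earlier results of these data known. Besides the 10 members and Cxcr2, the genes named are the 2 largest rises and 2 largest falls of each list among those past the thresholds in PyMT TANs against WT BM neutrophils, the list genes past them between the TANs, the 2 most abundant genes of each marker list and the 2 genes nearest to each member. Adgre1, Alas2, Gclc and Keap1 were singled out in addition, as said where they are named. Comparisons with marrow share their 4 control libraries, so their agreement is not independent. The erythroid marker Ahsp was not matched to a row.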

Additional observations from a re-analysis of the deposited data

Results flagged for a closer look

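Among the 30 combinations of gene and group, 1 held a mouse far from the others, Hmox1 in WT BM neutrophils, where replicate 3 was lowest at 114 CPM, with a gap of 0.842 of the group's range, past Dixon's critical value for 4 samples. Chance gives such a value in about 5% of groups. The change from WT BM neutrophils differed between PyMT-Cxcr2-/- and PyMT TANs, by edgeR's direct test of the TANs, for Tfrc (log2 -0.93, adjusted p = 0.0190), Tkt (1.19, adjusted p = 0.0190), G6pdx (1.11, adjusted p = 0.0289) and Pgd (0.92, adjusted p = 0.0479). Each of these 4 calls was lost without 1 or more single mice.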

How the results depend on the processing

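The rises of Srxn1, Txnrd1, Slc7a11, Nfe2l2 and Tfrc over marrow, and the fall of Slc40a1 in PyMT TANs, kept their direction and stayed past the thresholds in every alternative run. Hmox1 in PyMT TANs lay under the fold limit with DESeq2 (0.50), its size factors in edgeR (0.51), all 12 libraries in one fit (0.52), no filter (0.51) and the replicate block (0.58). A correction for gene length and GC content also moved the median of all genes, by -0.24, -0.49 and -0.08 (PyMT and PyMT-Cxcr2-/- TANs against marrow, and between the TANs), and the share of calls that were higher from 56.4% to 45.8%, 57.9% to 39.6% and 69.9% to 51.3%. Under it Hmox1 (0.49 and 0.41) and Fth1 (0.34 and 0.42) were no longer past the thresholds against marrow, 2 members were lower in PyMT-Cxcr2-/- TANs than in marrow, and 0 between the TANs, where Tfrc was at -0.92 (adjusted p = 0.0619). A form that keeps the TMM level of each library, chosen after seeing the data, gave -0.86 for Tfrc (adjusted p = 0.0307), 7 members higher against marrow in either genotype, and 0.0311 for Gclm in PyMT-Cxcr2-/- TANs against marrow, the opposite sign of -0.01. The median of all genes also moved by -0.14 in PyMT-Cxcr2-/- TANs against marrow with 12 libraries in one fit. There, and with no limit on the fold change, 2 members were lower, Slc40a1 being the second.

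Without 1 mouse, the members higher in PyMT TANs than in marrow were 5 to 7 and those lower 1 to 2. Those lower were 1 to 2 in PyMT-Cxcr2-/- TANs against marrow and 0 to 1 between the TANs. Gclm in PyMT-Cxcr2-/- TANs against marrow ranged from -0.0739 to 0.0764, and between the TANs Nqo1 ranged from -0.46 to 0.31 and Gclm from -0.00378 to 0.32, so their signs carry nothing.

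Between the TANs, 255 genes were higher and 110 lower. The numbers were 645 and 390 with DESeq2, 579 and 307 with 12 libraries in one fit, 471 and 123 with no filter, 39 and 37 with the correction and 156 and 76 with its second form. Equal replicate numbers are different mice, and the deviations of same-numbered TANs had a mean correlation of -0.13 (-0.21 to -0.07). With the replicate block, 4 genes were higher and 9 lower between the TANs (30.8% higher), 0 of them members. Tfrc then had an adjusted p of 0.104 at -0.94, and Nqo1 was at 0.0243 where it had been at -0.18. The block moved the median of all genes by 0.11 there and by -0.10 in PyMT TANs against marrow. Tkt, G6pdx and Pgd were all lost between the TANs under the first form of the correction (adjusted p = 0.0791, 0.117 and 0.214) and the replicate block (0.149, 0.216 and 0.242). Pgd was also lost with DESeq2 size factors (adjusted p = 0.0527), no robust estimation (0.0531) and the second form of the correction (0.0726). The causes of these changes were not tested. All members passed the count filter in each comparison, which shows only that they could be tested. Nqo1 had the fewest reads of them in TANs, from 55 to 233 in PyMT and from 106 to 248 in PyMT-Cxcr2-/- libraries. The part of depth in its spread was not tested.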
